A study of Mus musculus with 6 samples.

Results

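The 5 genes studied here equip the outer hair cell (OHC) for electromotility and for the answer to its efferent nerve supply and were followed in cochlear duct RNA of mice at postnatal day 8. They were chosen by symbol as *Slc26a5*, *Ocm*, *Kcnn2*, *Chrna9* and *Chrna10*, and all 5 were found among the 14865 genes listed in the deposited table and among the 14455 genes that could be tested. RNA was sequenced from 3 libraries of Gfi1+/+ mice and 3 libraries of Gfi1cre/+ mice, all of the C57BL/6 strain. In Gfi1cre/+ mice the coding sequence of Cre recombinase replaces part of 1 copy of *Gfi1*, so that Cre is driven by the *Gfi1* promoter and the other copy is intact, whereas Gfi1+/+ mice have 2 intact copies. A Gfi1+/+ library held RNA from 1 mouse, whereas a Gfi1cre/+ library held pooled RNA from 3 mice. Cre driven by this allele acts in hair cells (HCs) and also in resident immune cells of the inner ear. The tissue was the cochlear duct with all of its cell types, in which HCs are a minority, so that fewer HCs and less RNA per HC cannot be told apart in any value given here.

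OHCs amplify sound by changing their length with membrane voltage, and the membrane protein behind this movement is prestin, the product of *Slc26a5*. *Ocm* encodes oncomodulin, a small EF-hand calcium-binding protein of the parvalbumin family that is abundant in OHCs. Cholinergic olivocochlear neurons of the brainstem end on OHCs, where acetylcholine opens a receptor built from the subunits encoded by *Chrna9* and *Chrna10*. The calcium that enters opens the potassium channel SK2, encoded by *Kcnn2*, and the cell is hyperpolarized. Before the onset of hearing, which in mice comes after postnatal day 8, efferent fibres also contact inner hair cells (IHCs), which then carry the same receptor and channel, so that *Chrna9*, *Chrna10* and *Kcnn2* are not OHC-specific at this age. GFI1, a transcriptional repressor needed for HC survival, recognizes DNA through a short core with the letters AATC.

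The 250 bases before the RefSeq start of *Slc26a5*, *Ocm* and *Chrna9* are given 5′ to 3′ on the strand of the gene, since the comparison is between mice with 1 and with 2 intact copies of the gene for a repressor that binds AATC. Capitals mark AATC or its reverse complement GATT, and all other bases are in lower case. The windows are chr5:21865605-21865854 on the minus strand for *Slc26a5*, chr5:144050610-144050859 on the minus strand for *Ocm*, and chr5:65966874-65967123 on the plus strand for *Chrna9*, all in GRCm38.p6.
Slc26a5: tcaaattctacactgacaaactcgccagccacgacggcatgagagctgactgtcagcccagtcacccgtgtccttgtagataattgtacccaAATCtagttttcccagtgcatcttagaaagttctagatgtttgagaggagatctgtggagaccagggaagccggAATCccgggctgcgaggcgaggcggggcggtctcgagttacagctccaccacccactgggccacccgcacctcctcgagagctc
Ocm: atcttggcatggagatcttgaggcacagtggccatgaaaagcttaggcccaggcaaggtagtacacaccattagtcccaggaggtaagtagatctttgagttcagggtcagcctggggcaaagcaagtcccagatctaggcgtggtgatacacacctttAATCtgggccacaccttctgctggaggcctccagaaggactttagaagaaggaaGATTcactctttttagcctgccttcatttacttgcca
Chrna9: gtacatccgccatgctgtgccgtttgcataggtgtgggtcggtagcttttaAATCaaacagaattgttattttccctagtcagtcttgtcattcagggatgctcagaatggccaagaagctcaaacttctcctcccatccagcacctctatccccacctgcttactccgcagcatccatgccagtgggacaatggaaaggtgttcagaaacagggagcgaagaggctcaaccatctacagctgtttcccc

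The AATC core was found 2 times before *Slc26a5* (first bases at -158 and -84 from the start), 2 times before *Ocm* (-91 and, as GATT, -37) and 1 time before *Chrna9* (-199). It was not found in the window of *Chrna10*, whose sequence is not shown because 115 of its 250 bases lie in exons of the GENCODE annotation. So short a core is common, and 69.0% of the 32851 RefSeq windows of this length held it on either strand. The longer form AAATCA was found in the window of *Chrna9* (-200), overlapping its AATC, and in 12.4% of all windows. AGGTCA, a half-site of thyroid hormone receptors, was found in none of the 4 windows and in 14.0% of all windows. The RefSeq start of *Slc26a5* was also the outermost start of the gene in the GENCODE annotation. That of *Ocm* lay 23939 bases upstream of the outermost GENCODE start, and that of *Chrna9* lay 32203 bases inside the GENCODE gene. That of *Chrna10* lay 115 bases inside its GENCODE gene, so the annotations differ in where *Ocm*, *Chrna9* and *Chrna10* begin. A match of letters is a description of the window and not a binding site.

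The deposited values are reads counted on genes and divided by 1 size factor per library, and they are called normalized reads here. The libraries held between 13603908 and 19359753 recovered reads counted on genes, and 1 read was worth between 0.870 and 1.23 normalized reads. The label of the tissue was checked with marker genes. The HC genes *Myo7a* and *Otof*, the supporting cell genes and the stria vascularis genes were found in every library, and of the 13 skeletal muscle genes only *Actn3* passed the minimum for testing, with at most 40.7 normalized reads in a library. Gfi1+/+ replicate 1 stood apart from the other libraries, with a score of -44.0 on the first principal component against scores between -0.304 and 16.2 in the other libraries. Its sum over 17 neuron genes was 13828 normalized reads against 4211 to 6949 in the others. All 3 Gfi1cre/+ libraries held RNA of the Y-linked genes *Ddx3y*, *Kdm5d*, *Eif2s3y* and *Uty*, with sums between 794 and 1621 normalized reads, and the Gfi1+/+ libraries held at most 2.10, so that sex and genotype cannot be told apart. *Gfi1* itself, of which the Cre allele keeps the last exons, had 147, 160 and 152 normalized reads in the Gfi1+/+ libraries (replicates 1, 2 and 3) and 136, 130 and 139 in the Gfi1cre/+ libraries. Each Gfi1cre/+ library was below each Gfi1+/+ library for *Gfi1*, for which the two-sided exact permutation test gave p = 0.1, its smallest possible value with 3 libraries per genotype. A separation in this direction was found for 4.07% of all tested genes.

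Per length, the 5 genes spanned a wide range of levels in the same tissue. *Ocm* had 3039 ± 682 normalized reads per kilobase of exon in Gfi1+/+ (SD, n = 3) and 2584 ± 195 in Gfi1cre/+, which placed it at rank 265 of the 14388 tested genes with a known length. The other 4 genes were far lower. *Chrna10* had 145 ± 19.3 normalized reads per kilobase in Gfi1+/+ and 133 ± 7.74 in Gfi1cre/+, followed by *Slc26a5* with 108 ± 19.7 and 98.2 ± 6.91. *Chrna9* had 46.5 ± 4.98 in Gfi1+/+ and 42.2 ± 1.49 in Gfi1cre/+, and *Kcnn2* had the lowest level with 22.03 ± 1.23 and 20.3 ± 1.42. *Chrna10* and *Slc26a5* were the neighbours in this order whose libraries overlapped, although *Slc26a5* was below *Chrna10* in each library, at between 0.549 and 0.912 of its level per kilobase. The order was the same with the length of the longest coding transcript in place of the union of exons. On that scale *Kcnn2*, whose union of exons is 7468 bases against 3682 bases for the longest coding transcript, had 44.7 ± 2.501 normalized reads per kilobase in Gfi1+/+ and *Chrna9* had 76.3 ± 8.18.

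**Figure D1:**
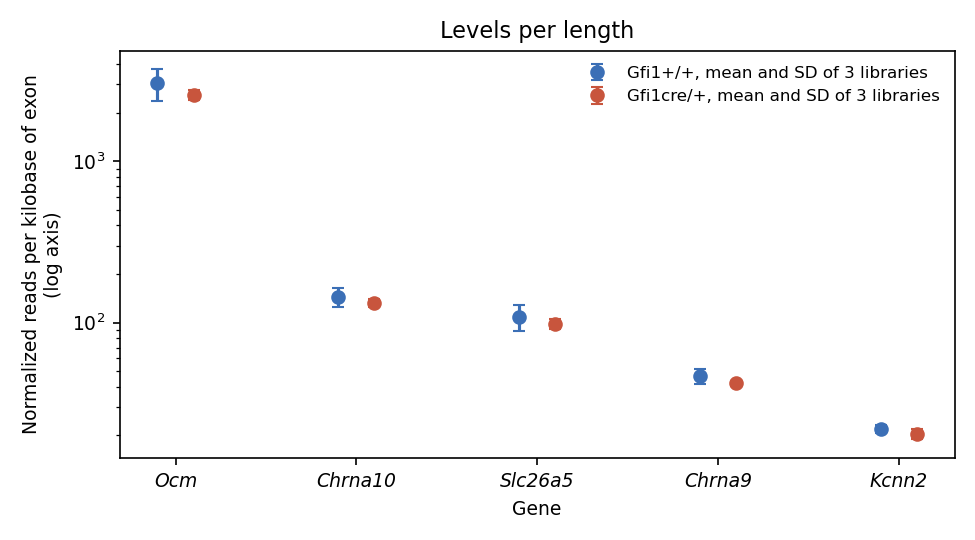
Normalized reads per kilobase of exon (log axis) of the 5 genes in Gfi1+/+ and Gfi1cre/+ cochlear ducts, as the mean with the SD of 3 libraries. Ocm lies far above the other genes, at 3039 in Gfi1+/+ and 2584 in Gfi1cre/+, and Kcnn2 is the lowest, at 22.03 and 20.3.

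In the GRCm38 build, which corresponds to the mm10 build the authors aligned to, *Slc26a5* (ENSMUSG00000029015) lies on the minus strand of chromosome 5 from 21810655 to 21865604. *Ocm* (ENSMUSG00000029618) lies on the minus strand of chromosome 5 from 144019804 to 144026670, and *Chrna9* (ENSMUSG00000029205) on its plus strand from 65934921 to 65977326. *Chrna10* (ENSMUSG00000066279) lies on the minus strand of chromosome 7 from 102111266 to 102116828, and *Kcnn2* (ENSMUSG00000054477) on the plus strand of chromosome 18 from 45268860 to 45686024. All 5 are annotated as protein-coding.

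How the reads were counted bears on 2 of these levels. Of the 50-base words of the *Chrna10* transcripts, 35.6% also occur, on the opposite strand, in transcripts of the overlapping *Art1*, which had between 14 and 26 recovered reads per library and was not tested. For *Kcnn2* 6.82% of the words occur on the opposite strand in A330093E20Rik or AC121957.1, which are not listed in the table. The library kit does not mark strand, so a read from a shared stretch does not show which gene it came from. Whether such reads were counted for either gene or left out is not given in the sources used here. The levels of *Chrna10* and *Kcnn2* per kilobase may therefore be too high or too low. No word of *Slc26a5*, *Ocm* or *Chrna9* was shared with another gene.

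The first question was whether cochleae with 1 intact copy of *Gfi1* held less RNA of these OHC genes. All 5 genes had a lower mean in Gfi1cre/+ than in Gfi1+/+, with fitted changes from -13.6% (*Ocm*) to -7.62% (*Chrna10*), and none of these differences passed a test. Among all 14455 genes, 50.1% had a log2 fold change below 0 and 14.8% had one at or below that of *Chrna10*, the smallest of the 5. The difference was tested with limma on log2(normalized reads + 1), two-sided, with Benjamini-Hochberg adjustment over all genes tested. None of the 5 genes had an adjusted p-value under 0.05, a threshold passed by 0.0277% of all genes, and none had an unadjusted p-value under 0.05, which 3.04% of all genes had, 2.02% with a lower and 1.02% with a higher level in Gfi1cre/+. With edgeR and with DESeq2 on the recovered reads, 0 of the 5 genes passed either threshold.

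The motor protein gene *Slc26a5* had 386, 267 and 343 normalized reads in the Gfi1+/+ libraries (replicates 1, 2 and 3) and 324, 281 and 300 in the Gfi1cre/+ libraries. The Gfi1cre/+ libraries all lay inside the range of the Gfi1+/+ libraries, which held both the highest and the lowest value. The means were 332 ± 60.4 and 302 ± 21.2 (SD, n = 3), and limma gave a log2 fold change of -0.12 with a standard error of 0.130 and an adjusted p of 0.999, with a 95% interval from -0.42 to 0.17 that allows a decrease by 25.1% or an increase by 12.5%. Without Gfi1+/+ replicate 1 the log2 fold change of *Slc26a5* was -0.0062, and without Gfi1+/+ replicate 2 it was -0.27, at an unadjusted p of 0.0237 from limma.

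The calcium buffer gene *Ocm* had the largest difference of the 5. It had 2365, 1673 and 2644 normalized reads in the Gfi1+/+ libraries (replicates 1, 2 and 3) and 1910, 1743 and 2029 in the Gfi1cre/+ libraries. Gfi1+/+ replicate 2 was the lowest of the 6 libraries and the other 2 Gfi1+/+ libraries were the highest. The means were 2228 ± 500.0 and 1894 ± 143 (SD, n = 3). By limma the log2 fold change came to -0.21 with a standard error of 0.147 and an adjusted p of 0.999, with a 95% interval from -0.54 to 0.12, or from a decrease by 31.3% to an increase by 8.81%. Without Gfi1+/+ replicate 2 it was -0.40, with an unadjusted p of 0.00121 and an adjusted p of 0.562 from limma, and without Gfi1+/+ replicate 3 it was -0.07.

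Among the genes of the efferent response, the receptor subunit *Chrna9* had 158, 132 and 132 normalized reads in the Gfi1+/+ libraries (replicates 1, 2 and 3) and 123, 131 and 129 in the Gfi1cre/+ libraries. It was the only one of the 5 whose libraries were separated by genotype, by an exact permutation test at its smallest two-sided p of 0.1. Such a separation was found for 7.52% of all genes, and for 4.07% with the lower values in Gfi1cre/+. The lowest Gfi1+/+ library, at 131.85, and the highest Gfi1cre/+ library, at 131.38, lay closer together than the worth of 1 read. The means were 141 ± 15.1 and 128 ± 4.51 (SD, n = 3), and limma gave a log2 fold change of -0.13 with a standard error of 0.113, a 95% interval from -0.39 to 0.12 and an adjusted p of 0.999. Without Gfi1+/+ replicate 1, which held the highest value, the log2 fold change of *Chrna9* was -0.05.

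The partner subunit *Chrna10*, which forms the receptor together with the product of *Chrna9*, had 402, 416 and 322 normalized reads in the Gfi1+/+ libraries (replicates 1, 2 and 3) and 372, 344 and 332 in the Gfi1cre/+ libraries. Here Gfi1+/+ replicate 3 was the lowest library of all. The means were 380 ± 50.8 and 349 ± 20.3 (SD, n = 3), and limma gave a log2 fold change of -0.11 with a standard error of 0.105, a 95% interval from -0.35 to 0.12 and an adjusted p of 0.999. It was -0.23 without Gfi1+/+ replicate 3, with an unadjusted p of 0.0158 and an adjusted p of 0.200 from limma, and -0.05 without Gfi1+/+ replicate 2.

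The channel gene *Kcnn2* had 160, 158 and 175 normalized reads in the Gfi1+/+ libraries (replicates 1, 2 and 3) and 163, 151 and 142 in the Gfi1cre/+ libraries. Of the Gfi1cre/+ libraries, 2 were below every Gfi1+/+ library and replicate 1 was inside their range. The means were 165 ± 9.21 and 152 ± 10.6 (SD, n = 3), and limma gave a log2 fold change of -0.12 with a standard error of 0.101, a 95% interval from -0.35 to 0.11 and an adjusted p of 0.999. With each library left out in turn it stayed between -0.17 and -0.07.

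**Figure D2:**
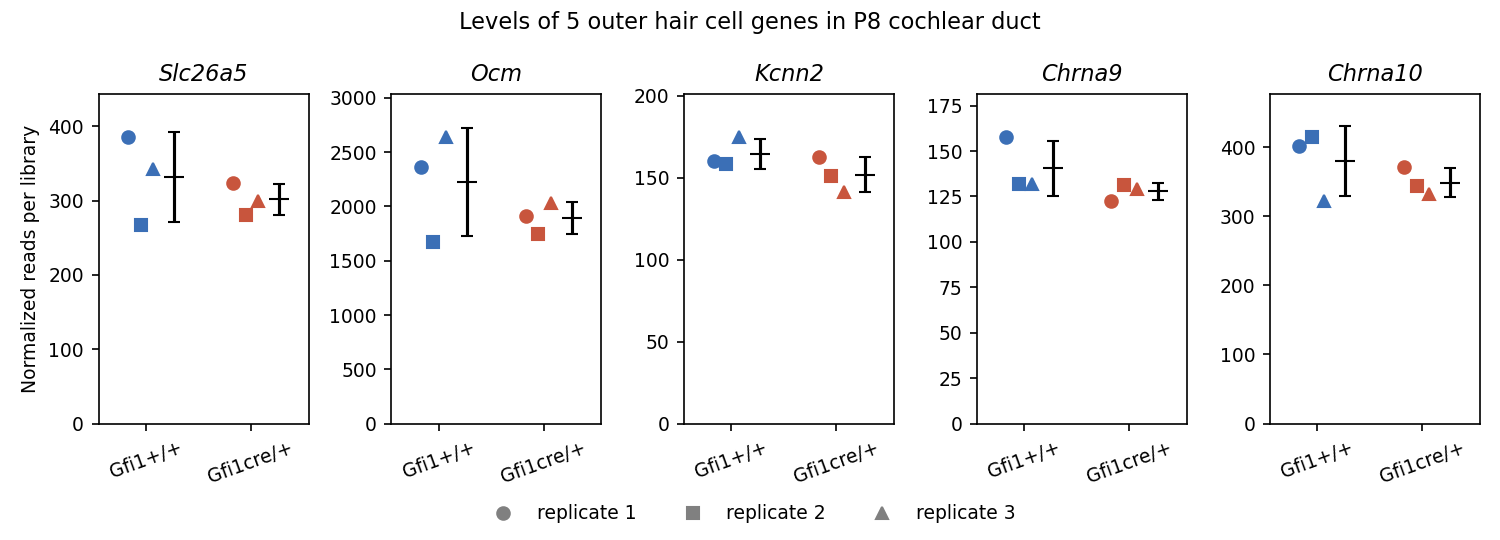
Normalized reads of each of the 5 genes in every library (linear axes from 0), with the Gfi1+/+ libraries in blue, the Gfi1cre/+ libraries in red, marker shapes for the replicate numbers, and the mean with the SD of 3 libraries beside each group in black. Every mean is lower in Gfi1cre/+, and the groups overlap in all genes but Chrna9, where 131.85 and 131.38 nearly touch.

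**Figure D3:**
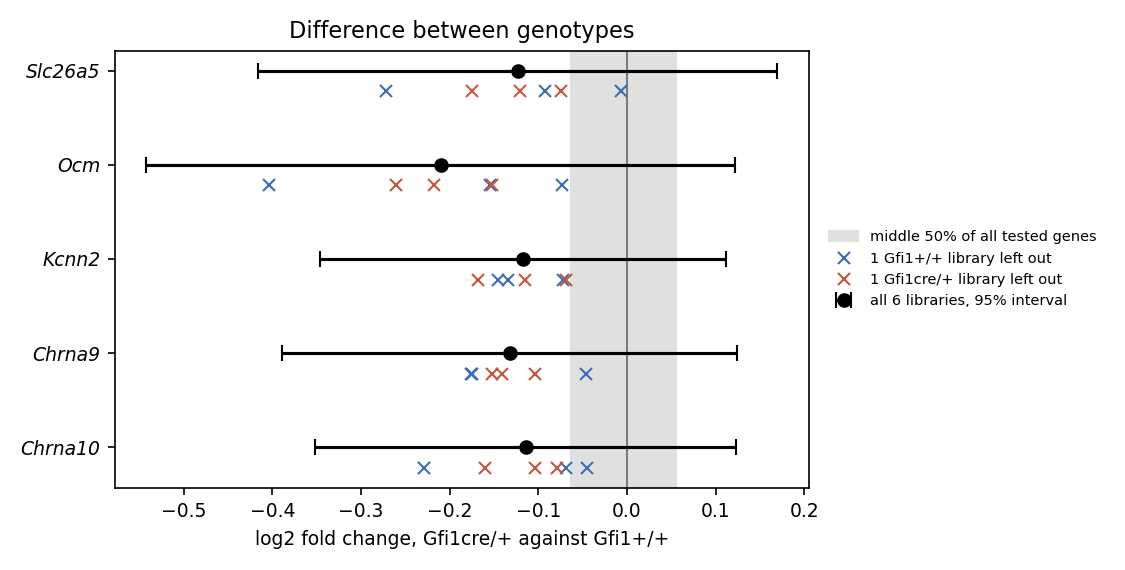
Log2 fold change of each gene, Gfi1cre/+ against Gfi1+/+, with its 95% interval from limma (black) and the values with 1 library left out (crosses, blue for a Gfi1+/+ library and red for a Gfi1cre/+ library), over the middle 50% of all tested genes (grey band). With all 6 libraries the values lie between -0.21 for Ocm and -0.11 for Chrna10 and every interval includes 0, and with 1 library left out they lie between -0.40 for Ocm and -0.0062 for Slc26a5.

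The spread within a genotype differed between the 5 genes and from what read counting alone gives. For *Ocm* the coefficient of variation came to 22.4% in Gfi1+/+ and 7.56% in Gfi1cre/+, while the counting error of a library was between 1.997% and 2.502%. For *Slc26a5* it was 18.2% and 7.04%, against a counting error between 5.18% and 6.26%. *Chrna10* gave 13.4% and 5.82%, against a counting error between 4.84% and 5.73%. The less abundant genes varied by about as much as read counting gives. *Kcnn2* varied by 5.60% and 7.01% with a counting error between 7.31% and 8.77%, and *Chrna9* by 10.7% and 3.53% with a counting error between 8.22% and 8.94%. These 2 genes rest on between 125 and 187 reads per library.

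The next question was whether the 5 genes moved together from library to library. The OHC genes *Slc26a5* and *Ocm* did so most. Both were lowest in Gfi1+/+ replicate 2 and next lowest in Gfi1cre/+ replicate 2, and both had their 2 highest values in Gfi1+/+ replicates 1 and 3. Likeness was measured as the root mean square difference between log2 profiles over the 6 libraries, each centred and scaled to an SD of 1, among the 5 genes and all others that averaged 200 or more normalized reads. *Ocm* came at place 197 of 10366 genes in likeness to *Slc26a5* (difference 0.566), and *Slc26a5* at place 209 in likeness to *Ocm*. The ratio of *Ocm* to *Slc26a5* per kilobase stayed between 24.7 and 32.3, with a highest over lowest of 1.31, but the ratios of *Chrna10*, *Slc26a5* and *Kcnn2* to *Chrna9* had a highest over lowest between 1.29 and 1.31 as well, while *Ocm* itself varied by a factor of 1.58 over the libraries and *Slc26a5* by 1.45.

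The receptor subunits did not follow the OHC pattern as closely. *Chrna10* was at place 5206 in likeness to *Slc26a5* and at place 8122 in likeness to *Ocm*, and the per-kilobase ratio of *Ocm* to *Chrna10* was lowest in Gfi1+/+ replicate 2, at 14.4, and highest in Gfi1+/+ replicate 3, at 29.5. *Chrna9* was at place 939 in likeness to *Slc26a5* and *Kcnn2* at place 1319 in likeness to *Ocm*. The products of *Chrna9* and *Chrna10* form a single receptor. *Chrna9* was at place 3066 in likeness to *Chrna10*, and *Chrna10* at place 2423 in likeness to *Chrna9*. Since *Chrna9* and *Kcnn2* varied by about as much as read counting gives, their places cannot tell whether they moved with the other genes. The *Chrna10* to *Chrna9* ratio per kilobase was 2.93, 3.63 and 2.81 in the Gfi1+/+ libraries (replicates 1, 2 and 3) and 3.49, 3.01 and 2.96 in the Gfi1cre/+ libraries, with means of 3.12 ± 0.441 and 3.15 ± 0.291 (SD, n = 3). This ratio overlapped between the genotypes (exact permutation test, two-sided p = 0.8), as did all 10 ratios between the 5 genes, each with an adjusted p of 1 from the exact permutation test over the 10 pairs.

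**Figure D4:**
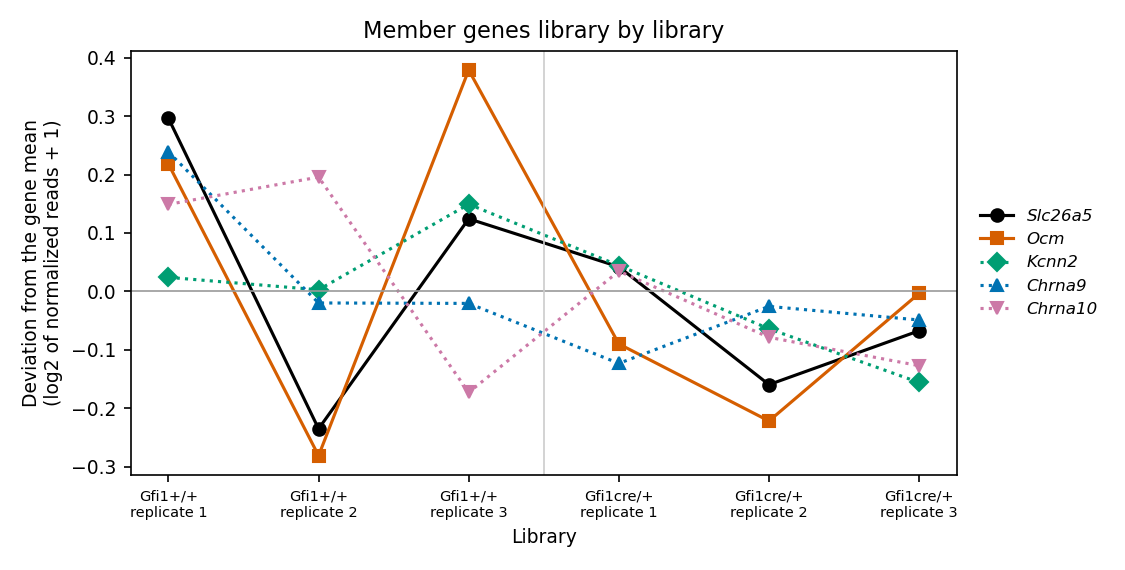
Deviation of each gene from its own mean over the 6 libraries (log2 of normalized reads + 1), by library, with Gfi1+/+ left and Gfi1cre/+ right of the grey line. The lines only join points of the same gene, since replicates have no order. Slc26a5 and Ocm are both low in replicate 2 of either genotype and high in Gfi1+/+ replicates 1 and 3, whereas Chrna10 is lowest in Gfi1+/+ replicate 3.

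The genes nearest in profile were listed for each of the 5, as a description over 6 libraries. They were *Rassf6*, *Skp1a* and *Fkbp7* for *Slc26a5*, with differences between 0.162 and 0.212. For *Ocm* they were *Emc3*, *Flot2* and *Car7*, with differences between 0.0778 and 0.165. *Bai1*, *Syt11* and *Me3* were nearest to *Chrna9*, with differences between 0.0827 and 0.105. *Bai1* had 410 normalized reads in Gfi1+/+ replicate 1 against 155 to 209 in the other libraries, and *Syt11* had 1391 against 672 to 824, so that *Chrna9* and these neighbours share their highest library. *Commd8*, *Ntan1* and *Dennd1b* were nearest to *Chrna10*, and *Lsm14b*, *Bud13* and *Kansl2-ps* to *Kcnn2*.

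The 5 genes were also taken relative to the mean log2 level of 23 general HC genes, which include *Gfi1* but none of the 5. This HC mean was itself lower in Gfi1cre/+ by 0.0893 on the log2 scale. Relative to it, the differences were -0.12 for *Ocm*, -0.04 for *Chrna9*, and -0.03 each for *Slc26a5*, *Kcnn2* and *Chrna10*. The genotypes overlapped in all 5 (exact permutation tests, two-sided, p between 0.6 and 0.9). *Ocm* lay 2.78, 2.36 and 2.94 above the HC mean on the log2 scale in the Gfi1+/+ libraries (replicates 1, 2 and 3) and 2.56, 2.47 and 2.68 above it in the Gfi1cre/+ libraries. On this scale too the lowest value of *Ocm* was that of Gfi1+/+ replicate 2.

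Other genes known from OHCs were compared as a list of 18, of which 15 were tested. A log2 fold change below 0 was found in 11 of the 15, against 50.1% of all genes, and none passed an unadjusted p-value of 0.05. The median was -0.06 against -0.000116 over all genes, and with 1 library left out it lay between -0.12 (without Gfi1+/+ replicate 3) and -0.01 (without Gfi1+/+ replicate 1). Scaling libraries on the HC genes adds 0.0893 to the log2 fold change of every gene alike, which puts this median at 0.03. The OHC list shares genes with the HC genes used for the scaling. *Strc*, which encodes the stereocilin of OHC bundles, followed the dip of *Slc26a5* and *Ocm* in Gfi1+/+ replicate 2, with 564, 407 and 576 normalized reads in the Gfi1+/+ libraries (replicates 1, 2 and 3) and 547, 470 and 539 in the Gfi1cre/+ libraries, and its log2 fold change was 0.02. *Ikzf2*, a transcription factor of OHC maturation, had 187 ± 26.7 normalized reads in Gfi1+/+ and 184 ± 8.42 in Gfi1cre/+ (SD, n = 3). *Slc7a14* was the 1 member of the 15 whose genotypes did not overlap, against 7.52% of all genes and 4.07% with lower values in Gfi1cre/+, with a log2 fold change of -0.19 (adjusted p = 0.999 from limma). *Lbh* and *Lmo7*, the most abundant members, had log2 fold changes of 0.03 and -0.06.

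The general HC genes had a log2 fold change below 0 in 18 of 23 tested, against 50.1% of all genes. Their median was -0.10. After the same shift it was -0.01, but the shift is the mean difference of these same genes, so a median near 0 was given in advance. The genotypes did not overlap in 6 of the 23 with lower values in Gfi1cre/+, against 4.07% of all genes. In 1 of the 23 they did not overlap with higher values, against 7.52% of all genes in either direction. *Gpr98* (-0.38) and *Pvalb* (-0.47), which encodes the calcium buffer parvalbumin, were lower at an unadjusted p-value under 0.05, as were 2.02% of all genes. *Tmie* (0.28), a part of the mechanotransduction complex, was higher at that threshold, as were 1.02% of all genes. None of the 23 HC genes had an adjusted p-value under 0.05. *Myo7a*, the myosin commonly used to mark HCs, had a log2 fold change of -0.04, and the abundant *Myo6* and *Triobp* had 0.03 and 0.05. The IHC list was split, with 4 of 8 genes below 0 and a median of -0.03. Its exocytosis gene *Otof*, which OHCs also express before hearing onset, had 1695 ± 122 normalized reads in Gfi1+/+ and 1525 ± 82.4 in Gfi1cre/+ (SD, n = 3), and *Slc17a8*, the vesicular glutamate transporter of IHCs, had 169 ± 4.32 and 170 ± 13.8.

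For the receiving side of the efferent synapse, 19 genes for clustering, calcium stores and calcium signalling were listed. In RNA of the whole cochlear duct their levels are not those of this synapse alone, and 15 of the 19 were tested. A log2 fold change below 0 was found in 9 of them with a median of -0.05, or 0.04 after the shift that scaling on the HC genes gives every gene, and none passed an unadjusted p-value of 0.05. *Rapsn*, which clusters nicotinic receptors, had 79.0, 77.5 and 73.8 normalized reads in the Gfi1+/+ libraries (replicates 1, 2 and 3) and 74.9, 83.4 and 76.4 in the Gfi1cre/+ libraries. *Atp2a3*, a pump that refills calcium stores, had 1395 ± 240 and 1226 ± 58.1 (SD, n = 3). *Ryr1*, a calcium release channel, had a log2 fold change of -0.06, and *Agrn* and *Calm3*, the most abundant members, had 0.05 and -0.07.

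*Chrna9* and *Chrna10* were set beside the other nicotinic subunits, and 8 subunits of 16 were tested, these 2 included. A log2 fold change below 0 was found in 7 of the 8 with all libraries and in 6 of 8 without Gfi1+/+ replicate 1. *Chrna3*, a subunit of ganglionic receptors, had an unadjusted p-value of 0.0489 from limma (log2 fold change -0.34, adjusted p = 0.999), with 163, 176 and 165 normalized reads in the Gfi1+/+ libraries (replicates 1, 2 and 3) and 151, 103 and 148 in the Gfi1cre/+ libraries. Its frequent partner *Chrnb4* had a log2 fold change of -0.26, *Chrna4* of -0.23 and *Chrnb2* of -0.12, and the muscle-type subunits *Chrna1* and *Chrnb1* had -0.19 and 0.05. *Chrna10* had the highest mean normalized reads of these subunits in either genotype, on a scale not corrected for length. Among the calcium-activated potassium channels, *Kcnn1* had a log2 fold change of -0.05, *Kcnn3* of -0.20, *Kcnn4* of 0.17 and the large-conductance channel gene *Kcnma1* of 0.15, and none of these 4 had an unadjusted p-value under 0.05.

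Genes of cholinergic and other efferent neurons, whose cell bodies lie in the brainstem, differed in where they were found. Of the 9 that were tested, 7 were highest in Gfi1+/+ replicate 1, whereas *Calca* and *Gata3* were highest in Gfi1+/+ replicate 2 and present in every library. *Slc18a3*, the vesicular acetylcholine transporter, had 159 normalized reads in Gfi1+/+ replicate 1 and at most 1 read in each of the other 5 libraries. *Chat*, which makes acetylcholine, had 58.0 there and at most 1 read elsewhere, where the limit of 3 reads is between 2.61 and 3.16 normalized reads. *Slc5a7*, the choline transporter, had 122 normalized reads in that library against 15.7 to 26.4 in the others, and *Ache*, which breaks acetylcholine down, had 252 against 39.95 to 67.9. *Gad2*, an enzyme of GABA synthesis, had 69.1 against 2.11 to 9.44. This was the library in which *Chrna9* and *Slc26a5* were highest, at 158 and 386 normalized reads, and in which 17 neuron genes and 10 glia genes had their largest sums. Whether the neural RNA of this library bears on its values of *Chrna9* and *Slc26a5* was not tested.

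**Figure D5:**
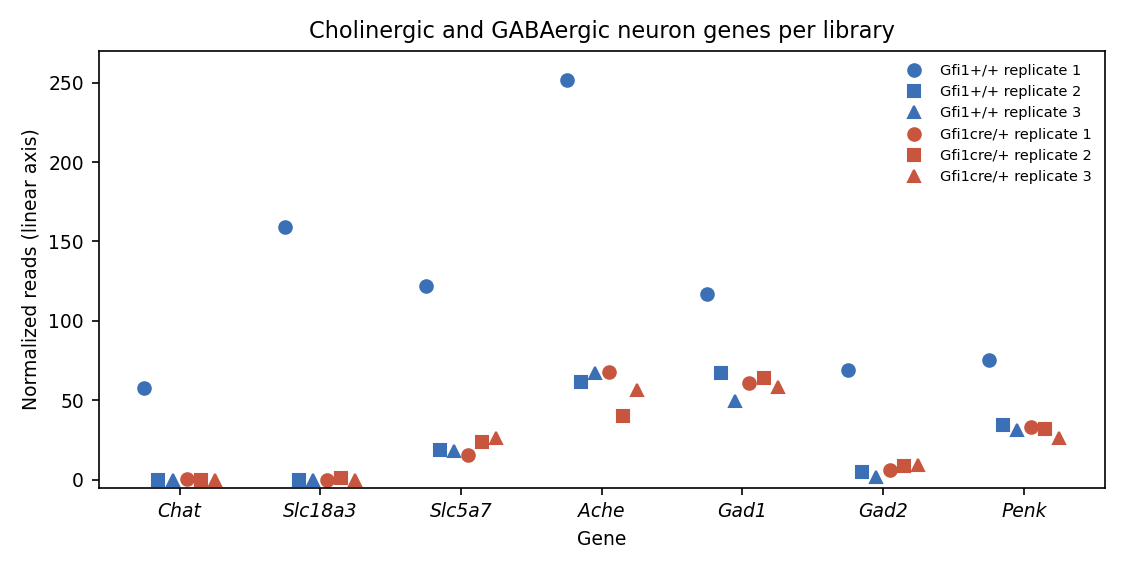
Normalized reads (linear axis) of 7 genes of cholinergic and GABAergic neurons in each of the 6 libraries, with blue for Gfi1+/+ and red for Gfi1cre/+, and marker shapes for replicate numbers. Gfi1+/+ replicate 1 (blue circles) is the highest library for every gene shown, with 252 for Ache and 159 for Slc18a3, while Chat and Slc18a3 are at or near 0 in the other 5 libraries. The tested genes Calca and Gata3, which are highest in Gfi1+/+ replicate 2, are not plotted.

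Of the 12 efferent fibre genes, 9 were tested and all 9 had a log2 fold change below 0. *Gata3*, which HCs and supporting cells also express, was lower at an unadjusted p-value of 0.0360 from limma (log2 fold change -0.16, adjusted p = 0.999), with 3106, 3259 and 2981 normalized reads in the Gfi1+/+ libraries (replicates 1, 2 and 3) and 2977, 2794 and 2587 in the Gfi1cre/+ libraries, so that the nearest libraries of the genotypes almost met. *Calca*, a peptide gene of efferent neurons, had 362, 401 and 257 normalized reads in the Gfi1+/+ libraries (replicates 1, 2 and 3) and 307, 298 and 281 in the Gfi1cre/+ libraries, with a log2 fold change of -0.18. Without Gfi1+/+ replicate 1 only 4 of the 12 genes passed the minimum for testing, 3 of them with a log2 fold change below 0 and none at an unadjusted p-value under 0.05.

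Markers of the other cells in the tissue moved as follows. The neuron genes had a log2 fold change below 0 in 17 of 17 with a median of -0.79, 7 of them at an unadjusted p-value under 0.05, against 2.02% of all genes in this direction. Without Gfi1+/+ replicate 1 the median was -0.53 over 14 genes, 3 of them under that p-value. The glia genes had 6 of 10 below 0, the supporting cell genes 9 of 16 with a median of -0.01, the stria vascularis genes 2 of 10 with a median of 0.07, and the macrophage genes 5 of 11 with a median of 0.02. The erythroid genes had a log2 fold change above 0 in 9 of 9 with a median of 0.60, all 9 at an unadjusted p-value under 0.05 against 1.02% of all genes in this direction, and 4 of 9 without Gfi1+/+ replicate 1. The skeletal muscle list had 1 gene tested. The part of these cell types in the values of the 5 OHC genes was not tested.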

How the data were processed

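PolyA RNA of cochlear ducts was measured by RNA-seq (TruSeq) in 6 libraries. The authors used TopHat with the mm10 build, HTSeq-count on the uniquely mapped reads, and a minimum of 40 reads for a gene to be listed. Versions, annotation and strand setting are not given in the sources used here. The deposited signal is named quantile-normalized in the methods, yet 100% of its values in each library were whole multiples of 1 step (within 0.1 read), so a value here is the number of reads over the size factor of its library. Each column carries the genotype and replicate number of 1 sample.

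Testing was limited to genes that reached 40 normalized reads in any library, with limma 3.58.1 (R 4.3.3, eBayes with a trend, genotype as the only term) on log2(value + 1), a scale that understates changes of low genes. Single values were compared with exact permutation tests (SciPy 1.17.1). edgeR 4.0.16 and DESeq2 1.42.0 were run on the recovered reads, where they called 4 and 10 genes. P-values over 3 libraries measure the spread between these samples, pooled in 1 genotype only. Alternatives were other pseudocounts, minima and scalings, no trend, a replicate block and each library left out; the lists without Gfi1+/+ replicate 1 were added after the values were seen. The fits were tested on simulated counts.

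Lengths, positions and overlaps came from GENCODE M21 (GRCm38), to which 14791 of 14865 identifiers matched, and promoter sequences from RefSeq (GRCm38.p6), which had 4 of the 5 genes. The members and lists were chosen with earlier results of these data known. The rule for naming genes was the 5 members, *Gfi1*, *Myo7a*, the listed nicotinic subunits and potassium channels, the 3 nearest profiles of each member, and, of each list, at most 4 genes with an unadjusted p-value under 0.05 and the 2 of highest level. Of the lists of other cell types only the counts are given. *Strc*, *Ikzf2*, *Slc7a14*, *Slc17a8*, *Rapsn*, *Atp2a3*, *Ryr1*, *Art1*, *Actn3* and the efferent neuron genes other than *Gata3* and *Calca* were named after their values were seen.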

Additional observations from a re-analysis of the deposited data

How the results depend on the processing

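Each of the 5 genes kept a log2 fold change below 0 and an adjusted p-value above 0.05 in every alternative in which it was tested, 16 for *Slc26a5*, *Ocm* and *Chrna10* and 15 for *Kcnn2* and *Chrna9*, which were under the minimum of a mean of at least 200 normalized reads. With 1 library left out the values ran from -0.27 to -0.0062 for *Slc26a5*, -0.40 to -0.07 for *Ocm*, -0.17 to -0.07 for *Kcnn2*, -0.18 to -0.05 for *Chrna9* and -0.23 to -0.05 for *Chrna10*. An unadjusted p-value under 0.05 was reached without Gfi1+/+ replicate 2 by *Ocm* (0.00121) and *Slc26a5* (0.0237), without Gfi1+/+ replicate 3 by *Chrna10* (0.0158), and under the block below by *Ocm*.

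The number of all genes at an adjusted p-value under 0.05 was 4, and it was 0 at a mean of at least 200 normalized reads (fewer genes tested; 229 at an unadjusted p-value under 0.05), 10 with DESeq2, and 0 to 48 with 1 library left out, 48 without Gfi1+/+ replicate 3, 8 without Gfi1+/+ replicate 2 and 0 without Gfi1cre/+ replicate 2 or 3 (212 and 249 at an unadjusted p-value). At an unadjusted p-value under 0.05 it was 439, 1339 when libraries were scaled on the general HC genes, and 212 to 2335 with 1 library left out, 2335 without Gfi1+/+ replicate 3. That scaling adds 0.0893 to every gene and so moved the list medians to 0.0282 (OHC genes), -0.0148 (general HC genes) and 0.0401 (efferent postsynaptic genes). The median of the general HC genes was bound to come near 0, since the scaling is taken from them. With 1 library left out the OHC median lay between -0.12 and -0.01 and the postsynaptic median between -0.061 and -0.0015. The causes of the other changes were not tested.

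Same-numbered replicates did not deviate together (correlations -0.0944, 0.107 and -0.0326 for numbers 1, 2 and 3). With the replicate number as a block the log2 fold change of *Ocm* was -0.21 at an unadjusted p of 0.0487 and an adjusted p of 0.999 from limma, and the block gave 4 genes at an adjusted and 462 at an unadjusted p-value under 0.05.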

Other observations

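The protein families of prestin and oncomodulin were also read as groups. Among the SLC26 anion transporters, 7 of the 11 genes were tested and 3 had a log2 fold change below 0, with *Slc26a5* at -0.12. *Slc26a4*, which encodes pendrin, the anion exchanger of endolymph homeostasis, was higher at an unadjusted p-value of 0.0331 from limma (log2 fold change 0.22, adjusted p = 0.999), with 1137, 1020 and 1294 normalized reads in the Gfi1+/+ libraries (replicates 1, 2 and 3) and 1271, 1337 and 1382 in the Gfi1cre/+ libraries, so that the genotypes overlapped. *Slc26a11* had 471 ± 5.09 and 504 ± 9.43 (SD, n = 3) and its genotypes did not overlap, which held for 7.52% of all genes in either direction. *Slc26a2* had a log2 fold change of -0.10.

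Among the EF-hand calcium buffers, *Pvalb*, the close relative of *Ocm*, had 362, 389 and 314 normalized reads in the Gfi1+/+ libraries (replicates 1, 2 and 3) and 258, 214 and 303 in the Gfi1cre/+ libraries, with an unadjusted p-value of 0.00630 and an adjusted p of 0.999 from limma. Every Gfi1cre/+ library was below every Gfi1+/+ library, which held for 4.07% of all genes. An unadjusted p-value under 0.05 with lower values in Gfi1cre/+ was found for 2.02% of all genes. Unlike *Ocm*, *Pvalb* was highest and not lowest in Gfi1+/+ replicate 2. *Calb1* and *Calb2* had log2 fold changes of 0.01 and -0.12, and the abundant *S100b* and *S100a1* had 0.18 and -0.10. *Slc26a11*, *Calb1* and *Calb2* were named after their values were seen.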
